A study of Mus musculus with 9 samples.

Results

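Cell cycle and proliferation genes were followed across the 3 treatment groups of a mouse study of choroidal neovascularization, the growth of new vessels from the choroid into the outer retina. The members were the 42 genes of a list of replication, G1/S and mitotic genes, found by symbol among the 24421 symbols of the deposited count tables. All 42 were present, and all 42 passed the filter on low counts, which left 14054 genes tested. They were divided by textbook function into 8 roles. Of these, 3 roles cover licensing and helicase, nucleotide supply and the fork, and G1/S regulators (17 members, called S-phase roles here). The other 5 cover mitotic cyclins and kinases, the spindle checkpoint, the kinetochore, the spindle with cytokinesis, and chromosome structure (25 members, called mitotic roles).

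Male mice aged 8 weeks received 4 laser burns per eye that broke the Bruch membrane, and 5 µg of 1 reagent at 5 mg/ml was injected into the vitreous. The control group received Fc, an antibody fragment. The second group received ABTAA, which clusters angiopoietin 2 and thereby switches on Tie2 signalling in endothelial cells, and the third received VEGF Trap, a decoy that takes up soluble VEGF. All 3 groups carried the laser injury, so the Fc libraries are injured tissue and not resting tissue. Each group held 3 libraries, made from 500 ng of RNA of microdissected pigment epithelium and choroid by a kit that reads transcript 3′ ends. The labels name no transgene or mutation, and neither the strain nor the delay from burn to collection is given in the sources used here. Titles set the groups, since the headings inside the Fc tables speak of a knockout's controls instead. Which animal gave which library is not stated, so a p-value here measures spread among samples that may be technical.

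A dividing cell first loads the MCM helicase on its DNA and makes nucleotides, under the E2F factors and the D- and E-type cyclins, and later assembles a spindle under CDK1, the A- and B-type cyclins, and the Polo and Aurora kinases. Genes of the first wave are classically driven by E2F sites in their promoters, and genes of the second wave by CHR elements bound by the MuvB complex with B-MYB and FOXM1. In a laser lesion of the choroid, endothelial cells, macrophages, fibroblasts and pigment epithelial cells are all known to divide.

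The promoters of the members carried these letters in different shares by role. In the RefSeq promoter table of GRCm38.p6 (250 bases before to 50 bases after a start site), 34 of the 42 members had an entry, with 36 promoters. Windows are shown for 2 helicase genes, 3 mitotic genes, and Cenpe, the member that passed the test, each 5′ to 3′ on the gene's own strand and ending before the start site. Capitals mark E2F letters in Mcm6 and Mcm5 (TTTGGCGC or TTTCGCGC on either strand, which overlap each other where the run is longer than 8 letters) and CHR letters in Cdk1, Cdc20 and Ube2c (TTTGAA or its reverse complement), and the Cenpe window holds none of the CHR letters. The coordinates, in the same order, are chr1:128359706-128359825, chr8:75109339-75109398, chr10:69352913-69353012, chr4:118437344-118437403, chr2:164769869-164769928 and chr3:135212503-135212562, and Mcm6, Cdk1 and Cdc20 lie on the minus strand.
Mcm6: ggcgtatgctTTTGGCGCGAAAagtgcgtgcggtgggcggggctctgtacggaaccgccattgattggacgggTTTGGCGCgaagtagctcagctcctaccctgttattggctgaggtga
Mcm5: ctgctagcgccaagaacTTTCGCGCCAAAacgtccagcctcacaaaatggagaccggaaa
Cdk1: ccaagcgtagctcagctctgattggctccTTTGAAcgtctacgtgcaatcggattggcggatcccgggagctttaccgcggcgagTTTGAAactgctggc
Cdc20: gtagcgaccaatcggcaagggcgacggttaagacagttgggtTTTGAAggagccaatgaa
Ube2c: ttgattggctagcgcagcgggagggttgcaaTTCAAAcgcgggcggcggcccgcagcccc
Cenpe: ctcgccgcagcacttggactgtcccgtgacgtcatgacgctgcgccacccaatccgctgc

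Over the whole promoters, CHR letters (TTTGAA or TTCGAA, both strands) occurred in 18 of 22 promoters of mitotic roles (81.8%), in 2 of 14 of S-phase roles (14.3%) and in 19.2% of all 32851 promoters. E2F letters (GGCGGGAA, TTTCGCGC, TTTGGCGC or TTTCCCGC, both strands) occurred in 1 of 22 (4.5%), 7 of 14 (50%) and 3.5%, and the CCAAT box in 90.9%, 64.3% and 37.4%. The roles that separate the members by function thus also separated them by promoter letters, which the choice of members did not use. The letters searched are those classically tied to each wave of genes, so this separation is not independent of the roles. The counts are of promoters and not of genes: Prc1 and Mcm7 entered with 2 promoters each. Those of Prc1 overlap, so the same CHR letters and CCAAT box were counted in both. A match is a description of letters and not of a bound site. Of the 3 members with the lowest p in VEGF Trap against Fc, Cenpe and Birc5 held no CHR letters in these windows and Ccna2 had no entry.

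Total counts ran from 6335805 to 14439835 per library, and the 42 members took 0.1445% to 0.1932% of them. Levels are library-scaled counts (CPM) scaled by TMM, and 3 counts correspond to 0.209 to 0.469 CPM, a floor for counting error only. Each transcript yields reads from its 3′ end in this kit, so the levels were not divided by length. The lowest value of a member was 1.08 CPM (Aurkb in VEGF Trap 1, 13 counts) and the highest 632 CPM (Ccnd1 in ABTAA 1). VEGF Trap 1 stood apart in marker sums over whole lists: the 8 lens markers summed to 63.5 CPM there and 12.2 to 25.1 CPM in the other 8 libraries, and the 7 melanocyte markers to 4162 CPM there and 2240 to 3070 CPM elsewhere. The 10 skeletal muscle markers summed to 92.6 to 140 CPM in Fc, 211 to 438 CPM in ABTAA and 198 to 353 CPM in VEGF Trap, without overlap between Fc and the other groups. The 7 neutrophil markers summed to 509 CPM in Fc 1 and 44.3 to 130 CPM elsewhere, with Elane at 0 in all 9 libraries. The 15 endothelial markers ran from 1950 to 2471 CPM in Fc, 2952 to 3098 CPM in ABTAA and 2269 to 2530 CPM in VEGF Trap, and the 14 macrophage markers from 2260 to 2382, 1842 to 2131 and 2242 to 2424 CPM. Sums in ABTAA also lay above Fc without overlap for the melanocyte markers (2898 to 2997 against 2240 to 2552 CPM), the 8 pericyte and smooth muscle markers (934 to 1255 against 702 to 931 CPM) and the 6 Schwann cell markers (998 to 1033 against 689 to 917 CPM). In VEGF Trap the pericyte markers summed to 652 to 972 CPM and the Schwann cell markers to 888 to 1023 CPM, both overlapping Fc. Over all 9 libraries the 8 fibroblast markers ran from 9470 to 12520 CPM, the 6 Mueller glia and astrocyte markers from 1222 to 1420, the 6 erythroid markers from 292 to 692, the 7 ocular surface markers from 0.488 to 8.32 and the 8 lymphocyte markers from 1.25 to 5.75 CPM, and their groups overlapped. The 10 pigment epithelium markers, the labelled tissue, were present at 1802 to 3022 CPM. The part of these cell types in the results was not tested.

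The summed level of the 42 members differed little between Fc and ABTAA and spread widely in VEGF Trap. The sums were 1782, 1875 and 1812 CPM in Fc, 1803, 1771 and 1915 CPM in ABTAA, and 1530, 1641 and 1887 CPM in VEGF Trap. VEGF Trap 1 and VEGF Trap 2 lay below the other 7 libraries, and VEGF Trap 3 lay above each Fc library. In bulk tissue, fewer dividing cells and less of each RNA per dividing cell cannot be told apart.

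The mitotic roles carried this difference. Their 25 members summed to 988, 966 and 991 CPM in Fc, to 814, 910 and 1065 CPM in ABTAA and to 672, 783 and 945 CPM in VEGF Trap. Each VEGF Trap library lay below each Fc library, while ABTAA lay on both sides of Fc. Abundant members weigh most in this sum, whose mean was 982 CPM in Fc and 800 CPM in VEGF Trap. Birc5 alone had means of 188 and 126 CPM in these groups, and Cenpa 108 and 86.4 CPM. The 17 members of S-phase roles summed to 794, 909 and 821 CPM in Fc, 989, 861 and 850 CPM in ABTAA and 858, 859 and 942 CPM in VEGF Trap, and the 3 groups overlapped. The sum of S-phase roles is mostly Ccnd1. Without it, the mitotic sum was 2.68 to 3.00 times the S-phase sum in Fc, 2.29 to 2.98 times in ABTAA and 2.24 to 2.52 times in VEGF Trap. These ratios of VEGF Trap lay below those of Fc in each library.

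**Figure D1:**
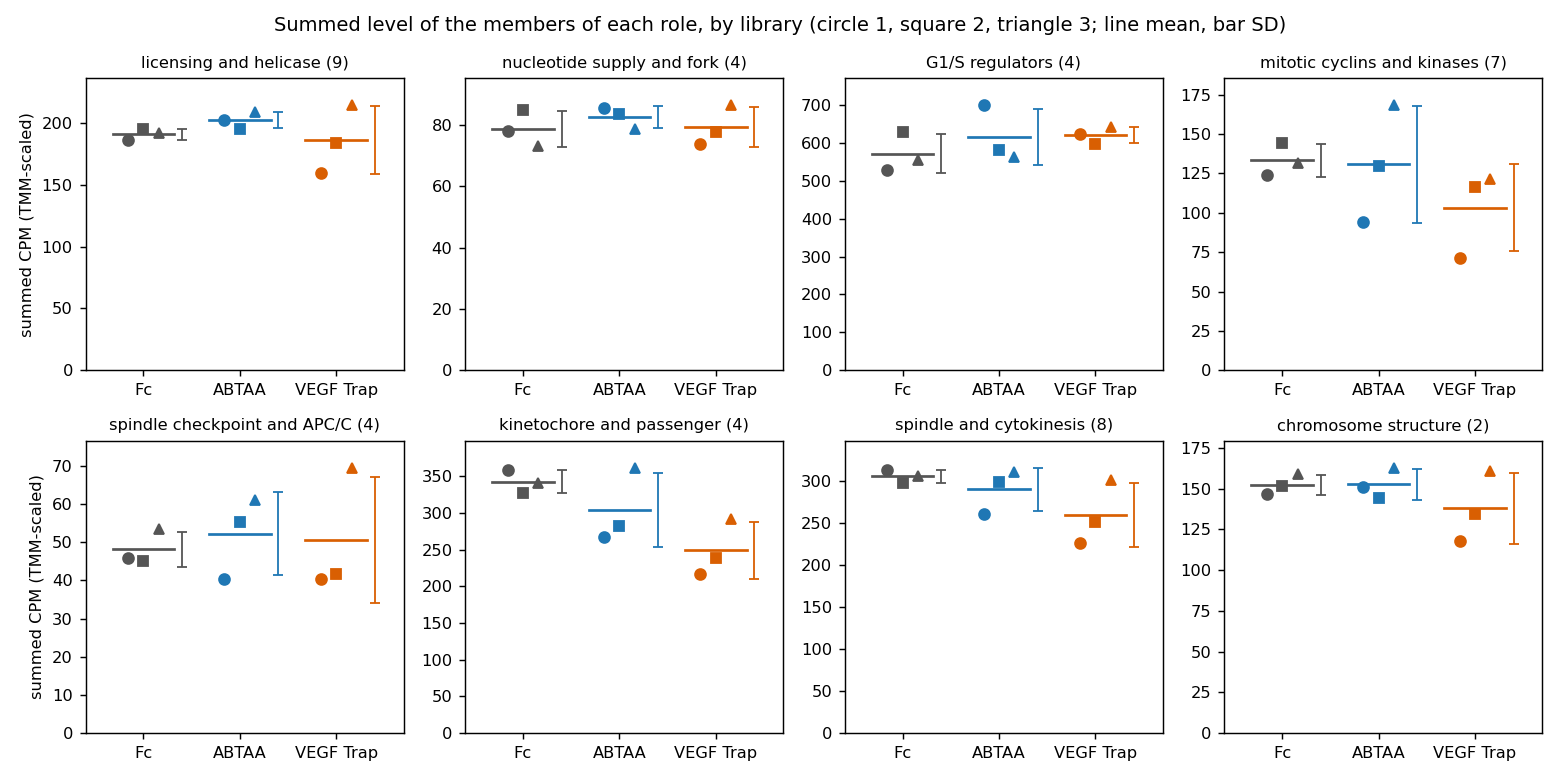
Summed TMM-scaled CPM of the members of each of the 8 roles in the 9 libraries (axes start at 0). Points are libraries (circle 1, square 2, triangle 3), lines are group means and bars are SDs of 3 libraries. In the kinetochore and mitotic cyclin panels the 3 VEGF Trap libraries lie below the 3 Fc libraries, and VEGF Trap 1 is lowest, while the 4 G1/S regulators overlap between groups.

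In the plot of summed levels by role, 2 roles had no overlap between VEGF Trap and Fc. The 4 kinetochore and passenger members summed to 217, 238 and 292 CPM in VEGF Trap against 328 to 359 CPM in Fc, and the 7 mitotic cyclins and kinases to 71.4, 117 and 122 CPM against 124 to 144 CPM. The 4 checkpoint members reached their highest sum in VEGF Trap 3 (69.6 CPM) and stood at 45.1 to 53.4 CPM in Fc. The kinetochore sum is mostly Birc5 and Cenpa. The sums are descriptions and carry no test.

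VEGF Trap set against Fc addresses the effect of VEGF withdrawal on the lesion. Cenpe, the kinesin that moves chromosomes to the spindle equator, fell, and it was the only member of 42 to pass the test (edgeR quasi-likelihood, Benjamini-Hochberg over 14054 genes). Among all genes tested 0.512% passed as lower and 0.512% as higher, and among the members 1 (2.38%) passed as lower and 0 as higher. DESeq2 called 3 members lower, Ccna2, Cenpe and Birc5. It also called far more genes in all, 664 in both directions together, of 19838 with a fold change. Any genes that DESeq2 left without an adjusted p are within the 19838. The share of genes it called lower was not counted, so no background share stands beside its 3 members. At an unadjusted p under 0.05, 6 members (14.3%) were lower beside 7.49% of genes tested, and 1 member (Cdt1, 2.38%) was higher beside 7.89%. The 3 VEGF Trap libraries lay below the 3 Fc libraries for 7 members (16.7%) beside 10.5% of genes tested, and above them for 2 members (4.76%) beside 10.4%. The 7 were Mcm6, Cdk1, Ccna2, Cenpa, Cenpe, Birc5 and Hmmr, and the 2 were Cdt1 and Rrm1. Of 42 members 30 had a negative log2 fold change (71.4%, against 49.9% of genes tested), with a median of -0.18 beside 0.00 over all genes. In mitotic roles 20 of 25 were negative with a median of -0.23, and in S-phase roles 10 of 17 with a median of -0.06.

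VEGF Trap 1 set much of the size of this difference. Without it the members' median was -0.05, the mitotic median -0.08 and 15 of 25 mitotic members were negative. Without VEGF Trap 3, the library with the highest member sum of its group, the medians were -0.23 and -0.37 and 24 of 25 were negative. VEGF Trap 1 is also the library with the highest lens and melanocyte sums given above. The mitotic sum rose with the library number in ABTAA (814 to 1065 CPM) as in VEGF Trap (672 to 945 CPM). ABTAA 3 and VEGF Trap 3 also had the lowest total counts, 6335805 and 7346988. The part of tissue content, library number or depth was not tested.

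Set against Fc, ABTAA addresses the effect of Tie2 activation on the same tissue. No member passed the test in either direction, where 0.847% of genes tested passed as higher and 0.555% as lower. DESeq2 also called 0 members, beside 729 genes in all, of 19838 with a fold change. At an unadjusted p under 0.05, 2 members (Mcm2 and Racgap1, 4.76%) were higher beside 8.64% of genes tested, and 4 (Gins2, Ccna2, Cenpe and Birc5, 9.52%) were lower beside 8.23%. The ABTAA libraries lay above Fc for 1 member (Rrm2, 2.38%) beside 11.7% of genes tested and below Fc for 5 (Gins2, Ccna2, Cenpe, Birc5 and Nusap1, 11.9%) beside 11.3%. These shares of lower members stand near the background. Of 42 members 19 were positive and 23 negative, with a median of -0.03 beside 0.00 over all genes, -0.08 in mitotic roles and 0.01 in S-phase roles.

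ABTAA was also compared with VEGF Trap directly. No gene passed, 0% of those tested, and DESeq2 called 0 genes as well. At an unadjusted p under 0.05, 3 members (Mcm6, Cenpa and Racgap1, 7.14%) were higher in ABTAA beside 2.64% of genes tested, and 0 were lower beside 2.42%. The groups did not overlap for 2 members, Mcm6 and Cenpe, both higher in ABTAA (4.76% beside 5.14%), and for 0 lower members beside 4.74%. Of 42 members 31 had a positive value (73.8%, against 49.5% of genes tested), with a median of 0.17 beside -0.003 over all genes. In mitotic roles 21 of 25 were positive with a median of 0.21. Without VEGF Trap 1 the median of the 42 members was 0.04 and 17 of 42 were negative. The comparisons of ABTAA and of VEGF Trap with Fc share the 3 Fc libraries, so their values are given side by side and not as independent results. Likewise, ABTAA against VEGF Trap and VEGF Trap against Fc share the 3 VEGF Trap libraries. Values of opposite sign in these comparisons are therefore not independent results either.

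**Figure D2:**
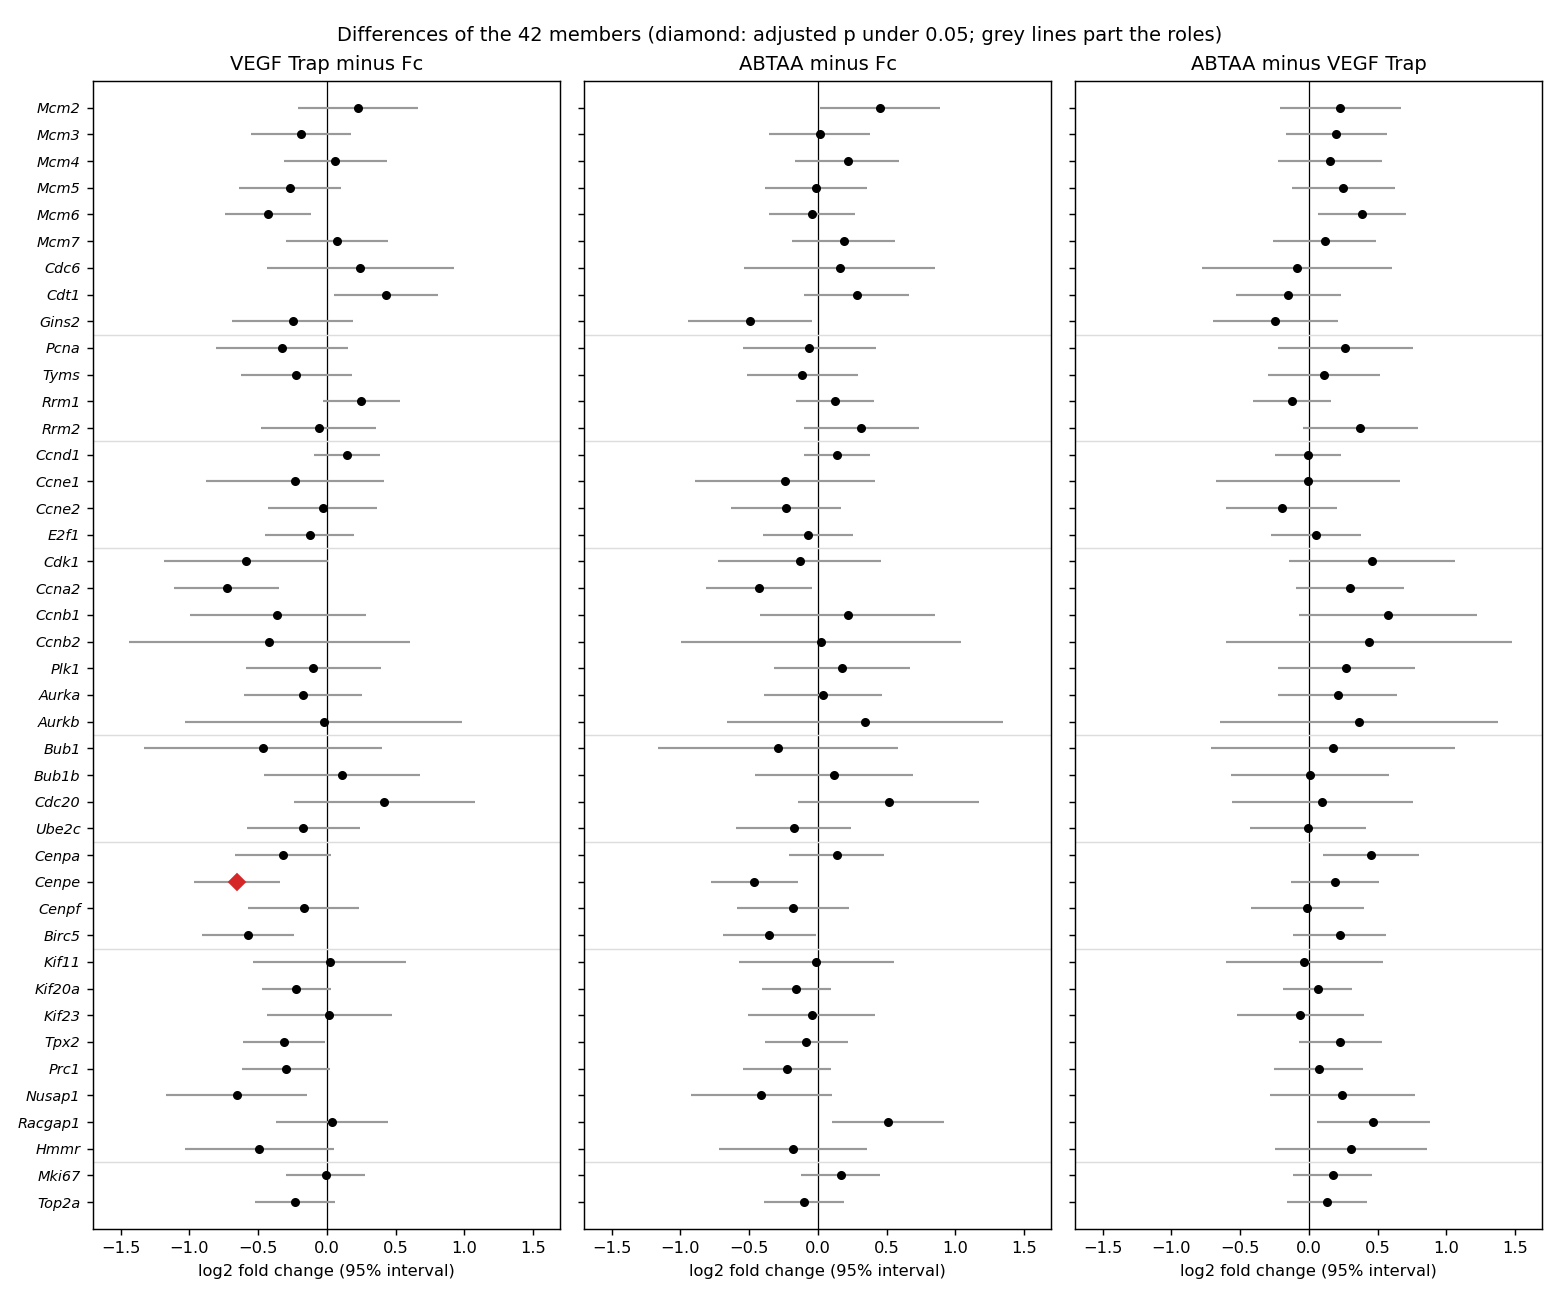
Log2 fold change of each of the 42 members in the 3 comparisons, with 95% intervals from the edgeR fit and grey lines between the roles. The red diamond is Cenpe in VEGF Trap minus Fc, the only point with an adjusted p under 0.05, and 20 of 25 mitotic members lie left of 0 in that panel.

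The plot of the 42 differences shows how much each interval allowed. For ABTAA against Fc, 38 of 42 intervals at 95% lay within a change of 1 on the log2 scale in either direction, and those of Aurkb, Bub1, Ccnb2 and Cdc20 did not. For VEGF Trap against Fc it was 34 of 42, with Aurkb, Bub1, Ccna2, Ccnb2, Cdc20, Cdk1, Hmmr and Nusap1 outside. In each of the 3 comparisons the intervals of all 17 S-phase members lay within that range. The widest intervals were those of the scarce members, and Ccnb2, with 18 to 75 counts per library, had one from -1.44 to 0.60 in VEGF Trap against Fc.

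Among the 9 licensing and helicase members, Mcm2 to Mcm7 encode the subunits of the replicative helicase, Cdc6 and Cdt1 load it and Gins2 belongs to the complex that activates it. Mcm6 read 26.1, 25.1 and 27.0 CPM in Fc, 25.4, 26.1 and 24.4 CPM in ABTAA, and 16.1, 21.2 and 20.8 CPM in VEGF Trap. Its VEGF Trap libraries lay below those of both other groups, by -0.43 ± 0.15 against Fc (log2 ± SE, adjusted p = 0.158, edgeR), and ABTAA lay above VEGF Trap by 0.39 ± 0.15 (adjusted p = 0.949). Mcm7 had the highest level of the role, at 40.0, 39.3 and 37.6 CPM in Fc, 46.1, 46.9 and 39.9 CPM in ABTAA and 30.4, 38.9 and 54.5 CPM in VEGF Trap. The VEGF Trap libraries of Mcm7 lay on both sides of Fc, with a log2 difference of 0.07 ± 0.17. The other helicase subunits overlapped between VEGF Trap and Fc. The log2 differences of VEGF Trap against Fc were 0.22 for Mcm2, -0.19 for Mcm3, 0.06 for Mcm4 and -0.27 for Mcm5, and none passed.

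Gins2 stood at 18.2, 20.2 and 15.3 CPM in Fc, 11.1, 13.8 and 13.3 CPM in ABTAA, and 14.1, 11.5 and 20.1 CPM in VEGF Trap. Its ABTAA libraries lay below Fc by -0.49 ± 0.21 (adjusted p = 0.253, edgeR), while VEGF Trap overlapped Fc. The last 500 exonic bases of Gins2 lie opposite exons of Gse1, which differed from Fc by -0.34 ± 0.14 in ABTAA (adjusted p = 0.246), and without a known strand setting their reads cannot be told apart. Cdt1, the loading factor, read 17.8, 14.3 and 16.2 CPM in Fc, 23.6, 14.8 and 20.5 CPM in ABTAA and 22.1, 21.0 and 22.2 CPM in VEGF Trap. It was the only member higher in VEGF Trap at an unadjusted p under 0.05 (0.43 ± 0.18, adjusted p = 0.249). Mcm2 read 10.6, 12.2 and 15.3 CPM in Fc and 20.4, 18.1 and 13.4 CPM in ABTAA, groups that overlap, with 0.45 ± 0.21 (adjusted p = 0.278). Cdc6 differed by no more than 0.24 ± 0.32 in either comparison with Fc.

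The 4 members of nucleotide supply and the fork were Rrm1 and Rrm2, the subunits of ribonucleotide reductase, the thymidylate synthase Tyms and the sliding clamp Pcna. Rrm1 read 31.0, 36.0 and 33.8 CPM in Fc, 40.8, 34.9 and 34.3 CPM in ABTAA and 37.7, 40.3 and 42.01 CPM in VEGF Trap. VEGF Trap lay above Fc in all its libraries, by 0.25 ± 0.13 (adjusted p = 0.39, edgeR). Rrm2, the subunit whose level follows S phase, read 12.5, 12.98 and 11.5 CPM in Fc, 14.8, 16.6 and 14.7 CPM in ABTAA and 11.8, 9.20 and 15.0 CPM in VEGF Trap. Here the ABTAA libraries lay above Fc, by 0.32 ± 0.20 (adjusted p = 0.443). Pcna and Tyms had group means of 10.2 to 12.6 CPM and 17.2 to 20.1 CPM, each highest in Fc, and their groups overlapped.

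The G1/S regulators were cyclin D1 (Ccnd1), the E-type cyclins Ccne1 and Ccne2, and the factor E2f1. Ccnd1, which links growth signals to the cycle and is also high in many resting cell types, read 464, 549 and 484 CPM in Fc, 632, 522 and 493 CPM in ABTAA and 557, 533 and 568 CPM in VEGF Trap. Its differences from Fc were 0.14 ± 0.11 in ABTAA and 0.15 ± 0.11 in VEGF Trap, with intervals from -0.10 to 0.38 and from -0.09 to 0.39. Its groups overlapped, and its 3′ end lies opposite that of LTO1. Ccne1 (4.07 to 4.84 CPM), Ccne2 (24.6 to 28.7 CPM) and E2f1 (36.0 to 39.3 CPM, group means) differed from Fc by -0.24 to -0.03 on the log2 scale in the comparisons with both reagents, and none passed.

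Among the 7 mitotic cyclins and kinases, each had a negative value in VEGF Trap against Fc, from -0.73 to -0.02. Each had a positive value in ABTAA against VEGF Trap, a comparison that holds the same VEGF Trap libraries. None passed. Cyclin A2 (Ccna2), which drives late S phase and entry into mitosis, read 26.8, 33.1 and 25.7 CPM in Fc, 17.04, 22.0 and 24.9 CPM in ABTAA and 17.2, 14.5 and 20.4 CPM in VEGF Trap. Both treated groups lay below Fc without overlap, ABTAA by -0.43 ± 0.18 (adjusted p = 0.242) and VEGF Trap by -0.73 ± 0.18 (adjusted p = 0.0607, edgeR). DESeq2 called Ccna2 in VEGF Trap (adjusted p = 0.0123), among 664 genes it called in all. Ccna2 shares 510 exonic bases with Exosc9 on the other strand, 147 of them in its last 500 bases. Exosc9, a subunit of the RNA exosome, itself differed from Fc by -0.99 ± 0.20 in VEGF Trap (adjusted p = 0.0323), and without strand its part in the Ccna2 counts cannot be told apart.

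Cdk1, the kinase that starts mitosis and whose promoter carries CHR letters at 2 places in the window above, read 31.1, 35.6 and 31.8 CPM in Fc, 17.04, 30.9 and 42.7 CPM in ABTAA and 13.2, 27.9 and 24.4 CPM in VEGF Trap. Its VEGF Trap libraries lay below Fc (-0.59 ± 0.28, adjusted p = 0.329), and its ABTAA libraries ran from below Fc, within VEGF Trap, to above both. Ccnb1, the B-type cyclin partner of Cdk1, read 12.1, 6.96 and 9.85 CPM in Fc, 8.47, 10.6 and 14.7 CPM in ABTAA and 4.56, 8.08 and 10.1 CPM in VEGF Trap. All 3 groups overlapped, and the value of ABTAA against VEGF Trap was 0.57 ± 0.30 (adjusted p = 0.962). Plk1, the Polo kinase, had its lowest level in VEGF Trap 1: it read 27.1, 36.4 and 31.3 CPM in Fc, 28.2, 35.5 and 44.0 CPM in ABTAA and 17.8, 35.2 and 36.0 CPM in VEGF Trap. The Aurora kinases Aurka (21.0 to 24.4 CPM) and Aurkb (1.68 to 2.21 CPM) and the cyclin Ccnb2 (4.11 to 5.56 CPM, group means) overlapped between groups.

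In the spindle checkpoint and APC/C role, Bub1 and Bub1b hold back anaphase, Cdc20 activates the ubiquitin ligase that starts it and Ube2c is the ligase's E2 enzyme. Cdc20 read 17.1, 10.3 and 15.7 CPM in Fc, 16.3, 24.5 and 20.8 CPM in ABTAA and 11.8, 14.6 and 32.4 CPM in VEGF Trap. It had the highest positive values of any mitotic member against Fc, 0.52 ± 0.31 in ABTAA (adjusted p = 0.429) and 0.42 ± 0.31 in VEGF Trap (adjusted p = 0.566, edgeR), with overlap in both. Its value in VEGF Trap 3 was above that of each other library. Bub1 (5.78 to 7.85 CPM), Bub1b (10.2 to 11.2 CPM) and Ube2c (13.9 to 15.7 CPM, group means) overlapped between groups, with differences from Fc of -0.47 to 0.12. Ube2c shares 592 exonic bases with the muscle gene Tnnc2 on the other strand, 0 of them in its last 500 bases, and Tnnc2 rose by 1.93 ± 0.32 in ABTAA (adjusted p = 0.0145) where Ube2c stood at -0.17 ± 0.20.

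The 4 kinetochore and passenger members had the lowest median of any role in both comparisons with Fc, -0.27 in ABTAA and -0.45 in VEGF Trap. Cenpe (plus strand, chr3:135212537-135273611 in GRCm38) read 24.9, 24.3 and 23.0 CPM in Fc, 16.2, 18.4 and 17.7 CPM in ABTAA and 16, 15.7 and 14.0 CPM in VEGF Trap. The 3 groups did not overlap, with Fc highest and VEGF Trap lowest. Cenpe fell by 0.65 ± 0.15 on the log2 scale in VEGF Trap (95% interval -0.97 to -0.34, adjusted p = 0.0468, edgeR). In ABTAA its value was -0.46 ± 0.15 (-0.78 to -0.15, adjusted p = 0.121), and ABTAA against VEGF Trap gave 0.19 ± 0.15 (-0.13 to 0.51), so a difference between the reagents was not detectable. Cenpe has no exon of another gene on the other strand and no near-identical 3′ end elsewhere.

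The call of Cenpe was at the threshold. It was lost without any 1 of the 9 libraries, with adjusted p from 0.0522 without ABTAA 1 to 0.177 without Fc 2, and when only Fc and VEGF Trap were fitted (adjusted p = 0.0613). The log2 value itself stayed between -0.69 and -0.60 when single libraries were omitted. Without VEGF Trap 3, Birc5 passed in its place (-0.80 ± 0.14, adjusted p = 0.0386).

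Birc5, which encodes survivin of the chromosomal passenger complex, read 197, 184 and 182 CPM in Fc, 147, 127 and 168 CPM in ABTAA and 102, 113 and 164 CPM in VEGF Trap. Both treated groups lay below Fc without overlap. The differences were -0.35 ± 0.16 in ABTAA (adjusted p = 0.273) and -0.57 ± 0.16 in VEGF Trap (adjusted p = 0.0834, edgeR). DESeq2 called the latter (adjusted p = 0.0131), among 664 genes it called in all. Cenpa, the histone variant that marks centromeres, read 116, 94.6 and 112 CPM in Fc, 85.9, 118 and 151 CPM in ABTAA and 82.6, 90.0 and 86.5 CPM in VEGF Trap. VEGF Trap lay below Fc (-0.32 ± 0.16, adjusted p = 0.38), ABTAA overlapped both, and ABTAA against VEGF Trap gave 0.45 ± 0.17 (adjusted p = 0.949). Cenpf, a large kinetochore and nuclear matrix protein, differed from Fc by -0.18 ± 0.19 and -0.17 ± 0.19.

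**Figure D3:**
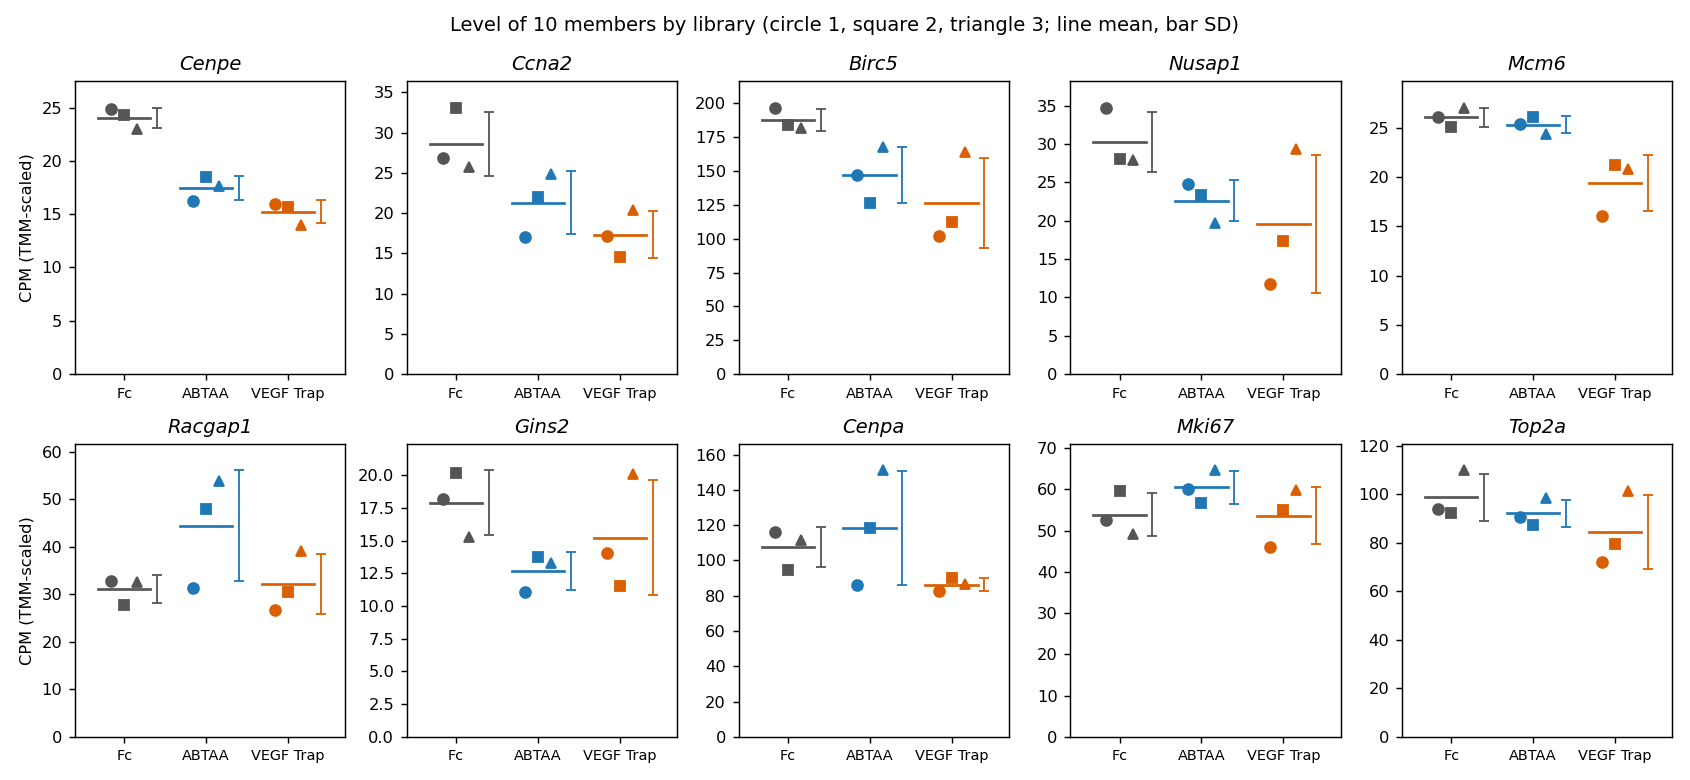
TMM-scaled CPM of 10 members in the 9 libraries (axes start at 0). Points are libraries (circle 1, square 2, triangle 3), lines are group means and bars are SDs of 3 libraries. The groups do not overlap for Cenpe, both treated groups lie below Fc for Ccna2 and Birc5, Mcm6 is low in VEGF Trap alone, Gins2 is below Fc in ABTAA, and Mki67 overlaps between all groups.

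In the plot of single members by library, the spindle and cytokinesis genes show the range of patterns within 1 role. Nusap1, a microtubule-bundling protein of the spindle, read 34.8, 28.1 and 27.9 CPM in Fc, 24.8, 23.4 and 19.7 CPM in ABTAA and 11.8, 17.4 and 29.4 CPM in VEGF Trap. ABTAA lay below Fc without overlap (-0.41 ± 0.24, adjusted p = 0.418), and VEGF Trap ranged from well below Fc to within it (-0.66 ± 0.24, adjusted p = 0.195, edgeR). Racgap1, a GTPase-activating protein of the central spindle, read 32.9, 27.7 and 32.7 CPM in Fc, 31.4, 47.9 and 54.0 CPM in ABTAA and 26.7, 30.6 and 39.1 CPM in VEGF Trap. ABTAA 2 and ABTAA 3 lay above the other 7 libraries while ABTAA 1 lay within Fc. The values were 0.51 ± 0.19 against Fc (adjusted p = 0.185) and 0.47 ± 0.19 against VEGF Trap (adjusted p = 0.956).

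Kif20a, the kinesin of cytokinesis with the highest level in this role, read 91.3, 88.1 and 74.99 CPM in Fc, 72.2, 75.7 and 80.2 CPM in ABTAA and 70.6, 76.2 and 71.1 CPM in VEGF Trap. The groups overlapped, at -0.16 ± 0.12 and -0.22 ± 0.12 from Fc, and the last 500 exonic bases of Kif20a lie opposite exons of Cdc23. Tpx2, which activates Aurora A, differed by -0.31 ± 0.14 in VEGF Trap (adjusted p = 0.305), and Prc1, which bundles the midzone, by -0.30 ± 0.15 (adjusted p = 0.363). The counts of Tpx2 are multiples of 5 and those of Prc1 of 3 in all 9 libraries, so their counting error is larger than the counts show. Hmmr read 7.29 to 7.64 CPM in Fc and 3.97 to 6.38 CPM in VEGF Trap, without overlap (-0.49 ± 0.25, adjusted p = 0.38). The kinesins Kif11 and Kif23 differed from Fc by at most 0.04 on the log2 scale in either direction, with standard errors of 0.21 to 0.27.

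Chromosome structure held Mki67 and Top2a, the genes most used to mark dividing cells. Mki67, which encodes the Ki-67 antigen, read 52.7, 59.6 and 49.2 CPM in Fc, 60.2, 56.7 and 64.6 CPM in ABTAA and 46.1, 55.0 and 59.8 CPM in VEGF Trap. It differed from Fc by 0.17 ± 0.14 in ABTAA (-0.12 to 0.45) and by -0.01 ± 0.13 in VEGF Trap (-0.29 to 0.28), with overlap in both. Top2a, which untangles chromosomes before anaphase, read 94.2, 92.2 and 110 CPM in Fc, 90.8, 87.6 and 98.4 CPM in ABTAA and 72.0, 79.6 and 102 CPM in VEGF Trap. Its values were -0.10 ± 0.14 and -0.23 ± 0.14, and its groups overlapped as well.

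**Figure D4:**
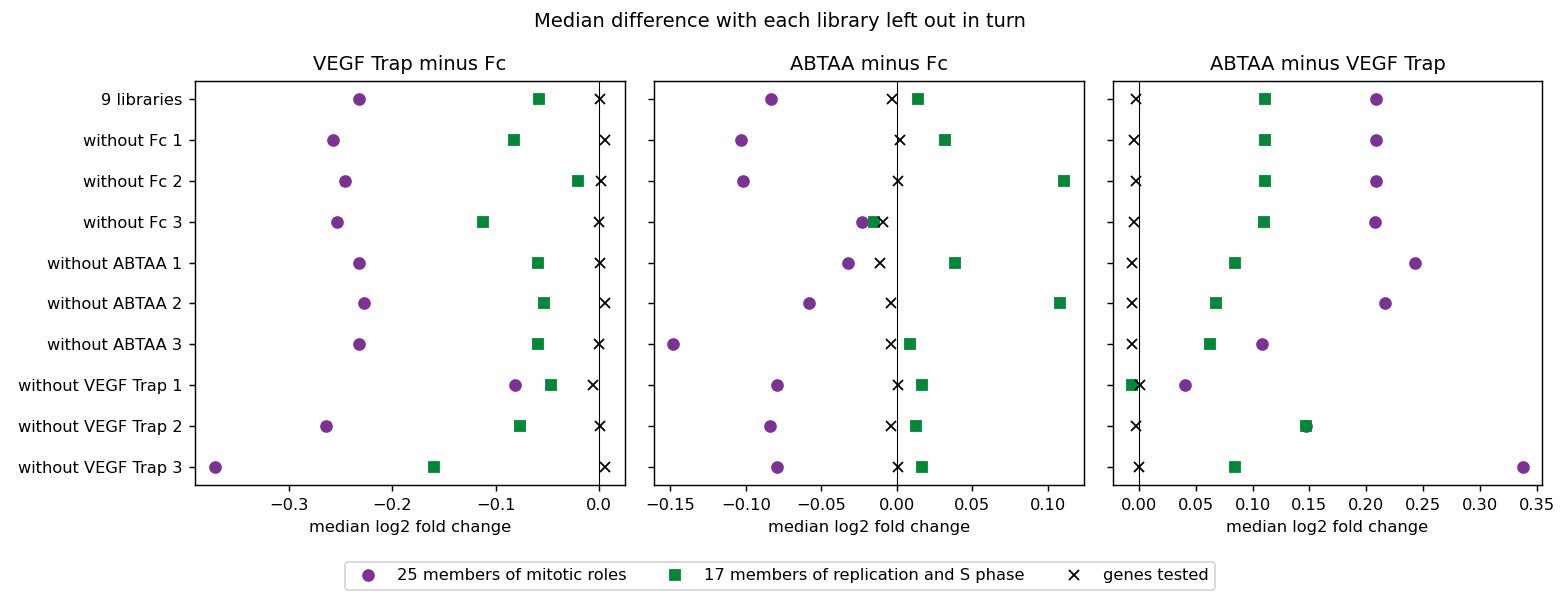
Median log2 fold change of the 25 members of mitotic roles, the 17 of S-phase roles and all genes tested, with all 9 libraries (top line) and with each library left out in turn, for the 3 comparisons. The mitotic median of VEGF Trap minus Fc ranges from -0.37 without VEGF Trap 3 to -0.08 without VEGF Trap 1, and that of all genes stays near 0.

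The plot of medians with libraries left out shows the mitotic median of VEGF Trap against Fc below 0 in each of the 9 omissions. Omitting an ABTAA library hardly touches this comparison, and the median then stayed at -0.23, so only omissions of Fc and VEGF Trap libraries inform it. The mitotic median of ABTAA against Fc ranged from -0.15 to -0.02 and that of ABTAA against VEGF Trap from 0.04 to 0.34. Scaling by library totals in place of TMM moved the median of all genes by -0.08 in VEGF Trap against Fc, and the mitotic median then was -0.31.

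Other genes of the cycle and p53 target genes, 141 in 7 lists with 137 tested, gave 1 call per comparison with Fc. In ABTAA, 0 passed as higher and 1 as lower (0.73% beside 0.555% of genes tested): Orc2, a subunit of the origin recognition complex that precedes MCM loading, at 46.3 ± 1.13 CPM in Fc and 30.2 ± 3.50 CPM in ABTAA (SD, n = 3 each). Orc2 fell by 0.62 ± 0.14 (adjusted p = 0.0424, edgeR), and its value in VEGF Trap was -0.33 ± 0.13 (adjusted p = 0.237). In VEGF Trap, 0 passed as higher and 1 as lower (0.73% beside 0.512%): Aen, a p53-induced nuclease, at 39.2 ± 1.43 CPM in Fc and 24.5 ± 4.26 CPM in VEGF Trap. Aen fell by 0.68 ± 0.15 (adjusted p = 0.0469), and its value in ABTAA was -0.35 ± 0.15 (adjusted p = 0.268). It comes from the list of p53 target genes, and no gene of the other lists passed in VEGF Trap. At an unadjusted p under 0.05, 24 were lower (17.5% beside 7.49% of genes tested) and 6 higher (4.38% beside 7.89%) in VEGF Trap, and 13 were lower (9.49% beside 8.23%) and 7 higher (5.11% beside 8.64%) in ABTAA. The listed genes summed to 3903, 4086 and 4443 CPM in VEGF Trap and 4395 to 4576 CPM in Fc, with overlap. The lists were chosen with earlier results of these data known and rest on the same libraries as the members. These shares are therefore not an independent result. ABTAA against VEGF Trap gave 0 calls among these 137, with 7 higher (5.11% beside 2.64%) and 3 lower (2.19% beside 2.42%) at an unadjusted p under 0.05.

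The 50 other mitotic genes had 39 negative values in VEGF Trap against Fc with a median of -0.25, and 30 negative values in ABTAA with a median of -0.12. Among them Ckap5, a microtubule polymerase, stood at -0.52 ± 0.15 and Stmn1 at -0.48 ± 0.17 in VEGF Trap (adjusted p = 0.0973 and 0.169), and Kif20b at -0.62 ± 0.20 and Cep55 at -0.83 ± 0.27 in ABTAA (adjusted p = 0.122 and 0.128, edgeR). The 35 other replication genes had 22 negative values in VEGF Trap (median -0.20) and 23 in ABTAA (median -0.09). Fen1, the flap endonuclease, stood at -0.53 ± 0.18 in VEGF Trap and -0.48 ± 0.18 in ABTAA, and Cdc45, the helicase cofactor, at -0.89 ± 0.32 in VEGF Trap (adjusted p = 0.177). Of the 9 E2F, MYB and FOXM1 factors, the repressor E2f6 was at -0.69 ± 0.17 in VEGF Trap (adjusted p = 0.0622) and -0.53 ± 0.17 in ABTAA (adjusted p = 0.131). E2f7 was at -0.84 ± 0.33 in VEGF Trap (adjusted p = 0.223) and E2f5 at -0.48 ± 0.33 in ABTAA (adjusted p = 0.504). No gene of these 3 lists other than Orc2 passed.

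The CDK inhibitors, p53 target genes, pocket and MuvB proteins, and other cyclins, CDKs and CDC25 genes were given by the same rule. Of the 8 CDK inhibitors 0 passed. Cdkn2d stood at 31.9 ± 6.09 CPM in Fc, 20.3 ± 5.05 CPM in ABTAA and 18.5 ± 2.50 CPM in VEGF Trap (SD, n = 3 each), with -0.66 ± 0.19 (adjusted p = 0.0946) and -0.78 ± 0.19 (adjusted p = 0.0593, edgeR). Cdkn2c had positive values, 0.73 ± 0.24 in ABTAA (adjusted p = 0.122) and 0.31 ± 0.24 in VEGF Trap (adjusted p = 0.576). Among 13 p53 target genes tested, Mdm2, the ligase that degrades p53, stood at -0.58 ± 0.14 and Zmat3 at 0.37 ± 0.13 in ABTAA (adjusted p = 0.0568 and 0.155), and Bax, which opens mitochondria in apoptosis, at 0.51 ± 0.14 in VEGF Trap (adjusted p = 0.0785). Of the 9 pocket and MuvB proteins, Lin9, a core MuvB subunit, was at -0.67 ± 0.23 in VEGF Trap (adjusted p = 0.151), and Lin37, another MuvB subunit, at 0.57 ± 0.19 (adjusted p = 0.153). In ABTAA the E2F partner Tfdp1 was at 0.62 ± 0.24 (adjusted p = 0.199) and Lin54 at -0.37 ± 0.23 (adjusted p = 0.447). These MuvB subunits thus had values of both signs. The 13 other cyclins, CDKs and CDC25 genes tested had medians of 0.04 in ABTAA and -0.03 in VEGF Trap, with 0 passing. In ABTAA the Cdk1 inhibitor kinase Wee1 was at 0.50 ± 0.19 (adjusted p = 0.177) and Cdk4 at 0.27 ± 0.16 (adjusted p = 0.441), and in VEGF Trap Cks1b was at -0.32 ± 0.16 (adjusted p = 0.339) and the D-type cyclin Ccnd3 at -0.22 ± 0.11 (adjusted p = 0.375).

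Some properties of the reads moved with these results, and their part was not tested. Genes called lower in VEGF Trap had a median transcript GC content of 49.2% and genes called higher 55.7%, against 50.3% over the genes tested with a value. For the mitotic members the median GC content was 47.3%, and for the S-phase members 50.9%. The 25% of genes with the lowest GC content had a median log2 fold change of -0.08 in VEGF Trap and -0.10 in ABTAA, and the 25% with the highest 0.13 and 0.15, while the mitotic members stood at -0.23 and -0.08. In all, 11 members overlap an exon on the other strand and 13 have another transcript that matches at least 100 of their last 200 bases at 95% identity or more, so their counts are uncertain, and 26 members, Cenpe and Birc5 among them, have neither. For 7 members (Mcm5, Tyms, E2f1, Aurka, Bub1, Tpx2 and Prc1) the counts of all 9 libraries share a divisor above 1.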

How the data were processed

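Whole-number counts per gene symbol were deposited by the authors for 9 libraries, unnormalized. The tools named are Bowtie2 and edgeR, and the build mm10, per the submitters' processing notes. Not given in the sources used here were tool versions, the annotation, the counter, its strand setting and how multiple matches were handled.

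After filterByExpr and TMM scaling to CPM, the quasi-likelihood F-test of edgeR 4.0.16 (R 4.3.3) was run in 1 model of all 9 libraries with 6 residual degrees of freedom. The 3 comparisons were each adjusted by Benjamini-Hochberg over 14054 genes, at 0.05. Standard errors were derived from F and the log2 fold change, intervals are at 95%, and the biological coefficient of variation was 17.9%. The scripts were tested on simulated data. Of the 15 marker lists, 14 are given, and the other is not reported here. Total counts per library, which set the counting error, ran from 6335805 to 14439835.

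The members and lists were chosen with earlier results of these data known. Members given by library were those past the threshold, the highest of each role, the 5 lowest p per comparison, and those whose groups did not overlap. The values by library of Mki67 and Mcm2 were added after they were seen. Other cycle genes and p53 target genes were named if past the threshold or among the 2 lowest p of a list in a comparison with Fc.

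Alternatives were DESeq2 1.42.0, RLE scaling, library totals, no filter, a fit of 2 groups only, a replicate block, counts divided by their common divisor, and each library left out. Coordinates came from GENCODE M21 (GRCm38, which mm10 names), 3′ copies from BLAST+ 2.17.0, and promoters from RefSeq.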

Additional observations from a re-analysis of the deposited data

How the results depend on the processing

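In VEGF Trap against Fc, 1 member passed by the reported test. The number was 3 with DESeq2, 2 with library totals (Ccna2 and Cenpe), 4 without a filter, 0 with only the 2 groups compared, 2 with the replicate block (Cenpe and Birc5), 2 with counts divided by their common divisor, and 0 to 1 without single libraries. Over all genes, 144 passed in this comparison, 664 with DESeq2, 221 with library totals and 616 without a filter. The number was 300 with the replicate block, 249 with the common divisor and 7 to 144 without single libraries, lowest without Fc 2. The fit without a filter tested 19838 genes, and DESeq2 gave a fold change for as many, beside 14054 genes in the reported test. In ABTAA against Fc, 0 members passed in each setting, and 197 genes passed, 729 with DESeq2, 684 without a filter, 301 with only the 2 groups, 334 with the replicate block and 0 to 373 without single libraries. The 0 was without ABTAA 2 (1743 genes at an unadjusted p under 0.05, edgeR) and the 373 without VEGF Trap 1. In ABTAA against VEGF Trap, 0 genes passed, 30 without a filter and 1 with the replicate block. The cause of these differences was not tested, beyond the fewer libraries that an omission leaves. Where an omission left 2 libraries in a group, the fit pooled the spread of all groups.

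Without single libraries, 0 to 8 of 42 members changed sign in VEGF Trap against Fc (8 without VEGF Trap 3), 0 to 7 in ABTAA against Fc (7 without ABTAA 3) and 0 to 6 in ABTAA against VEGF Trap. With library totals 5, 3 and 5 did. The replicate numbers of the titles were not taken as pairs: libraries of the same number had correlations of 0.02 to 0.11 (9 pairs), mostly below 0.1. Libraries of different numbers had -0.09 to 0.03 (18 pairs), and 9 of 9 libraries correlated best with their own number. What the numbers share was not tested, and the reported p-values leave it out. The replicate block raised the number of genes passing in both comparisons with Fc, as given above. Depth limits the scarce members, such as Aurkb at 10 to 37 counts.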
